A study of Mus musculus with 6 samples.

Results

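A set of 10 genes that mark the adventitial fibroblasts and trophocytes of the gut wall were followed in colon of Islr knockout and control mice. The 10 genes were Pi16, Cd34, Dpp4, Clec3b, Dpt, Ackr4, Cd81, Thy1, Pdpn and Gsn, taken as known markers of these cells and matched through the RefSeq accession of each probe. They were measured by 14 of the 56605 probes of the array, which cover 23462 named genes. The 6 arrays came from colon of 3 male control mice and 3 male mice labelled Islr knockout, 1 single-colour Agilent array per animal. The Islr product is a secreted protein of stromal cells that carries leucine-rich repeats. According to the sample source, animals of both genotypes were given 3.5% dextran sulfate sodium, which injures the colonic epithelium, for 5 days and then recovered for 1 day. Another field, on treatment, reads as if there had been none. The labels used here give no age, strain, allele or Cre driver, and the design text speaks of flow separation without naming the cells. The question asked of the data was how the levels of these markers in colon differed with loss of Islr.

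Adventitial fibroblasts lie around vessels and in the deeper submucosa, express Pi16, Dpp4, Cd34 and Dpt, and are regarded as a reserve population from which other fibroblasts can arise. Trophocytes are the Cd81-positive, Pdgfra-low fibroblasts beneath the crypt base, marked by Cd34, Ackr4 and Pdpn, which supply stem cells with the BMP antagonist gremlin and with Wnt-supporting factors. None of the 10 genes is restricted to fibroblasts. Cd34 is also an endothelial gene, Pdpn is found on lymphatic endothelium and lymphoid stroma, Thy1 on T cells and neurons, Dpp4 on enterocytes and T cells, Gsn in smooth muscle, and Cd81 on most cells.

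Values below are log2 signals relative to the 75th percentile of the same array, so that 0 is that percentile. They are comparable between arrays for 1 probe, and not between probes. Before scaling, that percentile was 6352.7 to 7110.5 intensity units in controls and 4910.5 to 5820.0 in knockouts, so each knockout array was dimmer than each control. Between 69.4% and 75.4% of spots were well above background. The scanner software marked 3.26% to 15.99% of spots as outliers, most on knockout replicate 1 and control replicate 1, and 10.7% to 56.8% among the brightest 10% of spots. Controls filled 1 row of the slide and knockouts the other, so slide row and genotype cannot be told apart. The Islr probe (A_51_P140742) was lower in the knockout by -2.44 (SE 0.21, limma adjusted p 0.0171), in the direction of the labels.

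None of the 14 marker probes passed the test between genotypes. In all, 10 probes of 7 genes could be tested in limma, and 0 were called at an adjusted p of 0.05, against 3.97% of all 35351 tested probes (2.42% lower and 1.55% higher in the knockout). At an unadjusted p of 0.05, 3 of the 10 were lower in the knockout and 0 higher, against 14.1% of all tested probes that were lower and 26.8% in either direction. These 3 were the probe of Pdpn and both probes of Cd34. In all 3 the groups did not overlap, as in 17.8% of tested probes in that direction and 34.9% in either. Of the 13 marker probes above background, tested or not, 4 did not overlap and were lower and 0 higher, against 17.6% and 17.3% of all 40172 such probes. The fourth was that of Dpt. The brightest tested probes of the 7 genes had a median difference of -0.13 and ranged from -1.40 to 0.31, and 4 of 7 were lower. Over all 16451 tested genes the median was 0.01, and 48.8% were lower. The remaining genes, Dpt, Ackr4 and Dpp4, were not tested. Too many spots of the Dpt and Ackr4 probes and of the brighter Dpp4 probe were marked as outliers, and these probes are given below with those spots kept. The dimmer Dpp4 probe did not pass the filter on dim probes.

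**Figure D1:**
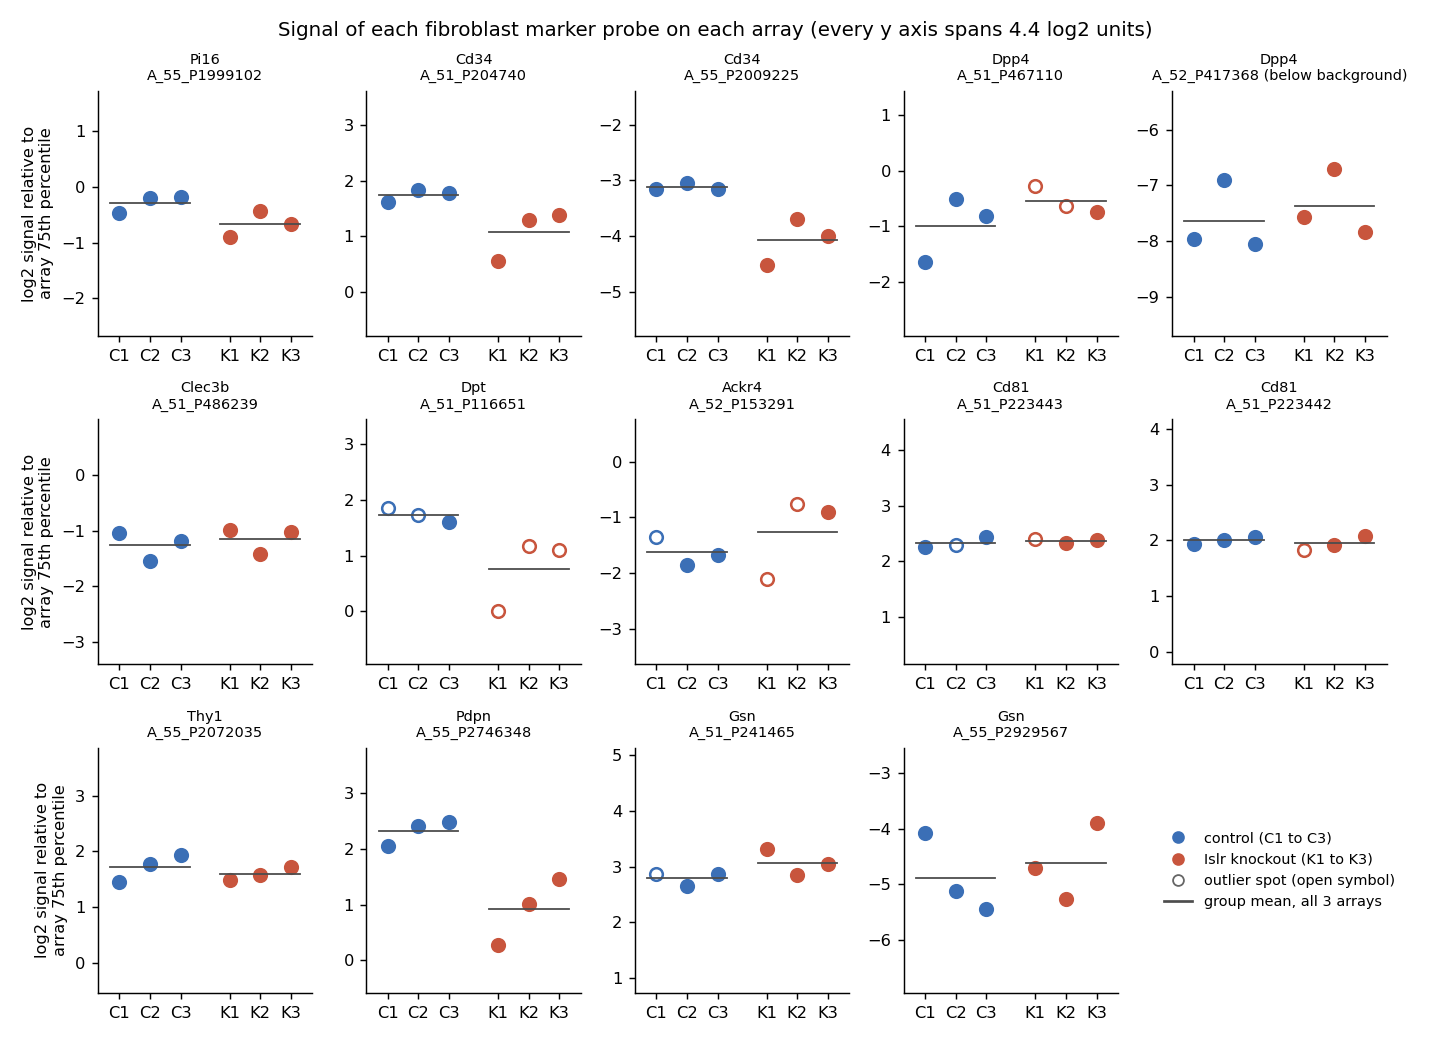
Scaled log2 signal (y axis, 0 at the 75th percentile of the array) of each of the 14 marker probes on control arrays C1 to C3 and Islr knockout arrays K1 to K3 (x axis), with open symbols for outlier spots and bars for the mean of the 3 arrays. The knockout points of Pdpn, Dpt and both Cd34 probes all lie below the control points, and those of the other probes overlap with the controls.

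Pdpn, or podoplanin, is a mucin-type membrane glycoprotein that binds the platelet receptor CLEC-2 and is carried by trophocytes, lymphoid stromal cells, lymphatic endothelium and mesothelium. Its probe (A_55_P2746348) read 2.06, 2.41 and 2.48 in the control mice and 0.28, 1.01 and 1.46 in the knockouts. Every knockout lay below every control, and knockout replicate 1 was the lowest. The means were 2.32 ± 0.22 and 0.92 ± 0.60 (SD, n = 3 each), a difference of -1.40 (SE 0.31, 95% interval -2.15 to -0.65), or a 2.64-fold lower signal. It did not pass over all probes (limma adjusted p 0.0581). That p lay near the threshold. It was 0.0356 with normexp and quantile normalization, 0.0484 with quantile normalization, 0.0352 with median centring, 0.0188 with array weights, 0.0166 with array weights and outlier spots kept, and 0.0487 in the series value table. These settings called more of all tested probes too, namely 7.83%, 6.18%, 6.36%, 20.7%, 23.7% and 5.66% in that order. It was 0.0608 to 0.163 when any 1 array was left out, with differences of -1.67 to -1.08. Of all tested probes 2114 were called without control replicate 1 and 1150 without knockout replicate 2. Without any of the other arrays 40 to 263 were called, against 1403 with all 6 arrays. Without knockout replicate 1 the difference was -1.08.

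Cd34 is a sialomucin of progenitor cells, endothelium and fibroblasts outside the subepithelial layer. Its brighter probe (A_51_P204740) read 1.61, 1.84 and 1.78 in controls and 0.56, 1.30 and 1.39 in knockouts. Its dimmer probe (A_55_P2009225) read -3.15, -3.05 and -3.16 in controls and -4.52, -3.70 and -4.00 in the knockouts. At both probes the groups were apart, and knockout replicate 1 was the lowest array. The means were 1.74 ± 0.12 and 1.08 ± 0.46 at the brighter probe and -3.12 ± 0.06 and -4.07 ± 0.41 at the dimmer one (SD, n = 3 each). The brighter probe differed by -0.66 (SE 0.25, 95% interval -1.25 to -0.06, limma adjusted p 0.152), a 1.58-fold lower signal. The dimmer one differed by -0.95 (SE 0.23, 95% interval -1.50 to -0.41, adjusted p 0.0653), a 1.94-fold lower signal. The adjusted p of the dimmer probe was 0.0353 with normexp and quantile normalization, 0.0379 with quantile normalization, 0.0398 with median centring, 0.0208 with array weights and 0.0169 with array weights and outlier spots kept. It was 0.0550 to 0.191 when 1 array was left out, in fits that called 40 to 2114 of all tested probes. The brighter probe was not called under any alternative that was run. Without knockout replicate 1 the brighter probe differed by -0.40.

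Dpt, or dermatopontin, is a small matrix protein that binds decorin and promotes collagen fibril assembly. Its probe (A_51_P116651) read 1.85, 1.73 and 1.61 in controls and 0.01, 1.17 and 1.10 in knockouts. Here each value but that of control replicate 3 came from a spot marked as an outlier. With these spots kept, every knockout was below every control. The difference was then -0.97 (SE 0.32, 95% interval -1.74 to -0.20), or 1.96-fold lower, and did not pass over all probes (limma adjusted p 0.114), where 4.85% of probes were called with outlier spots kept. Without knockout replicate 1 it was -0.60.

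**Figure D2:**
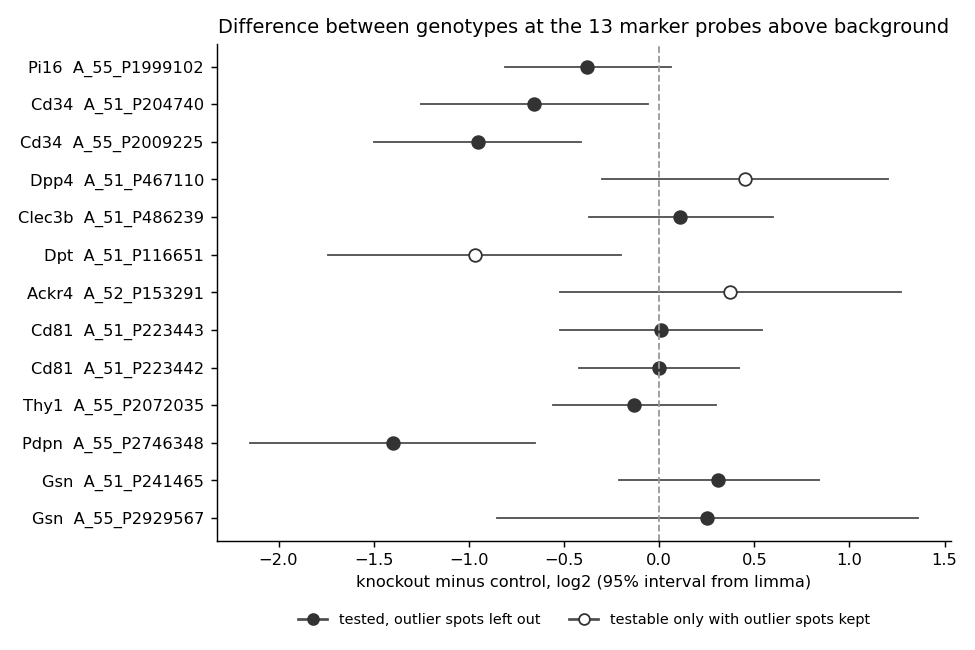
Knockout minus control difference on the log2 scale (x axis) with its 95% interval from limma for the 13 marker probes above background (y axis), filled where outlier spots were left out and open where the probe could be tested only with them kept. The intervals of Pdpn, Dpt and both Cd34 probes lie below 0 before adjustment for the number of probes, and the other intervals include 0.

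The sequences before the transcription start of Pdpn, Cd34 and Dpt are shown because these 3 genes had the largest negative differences, with Cd81 beside them as a gene whose values in both genotypes were close. Each is the 250 bases before the RefSeq start on build GRCm38.p6, written in the direction of transcription, with any CAGCTG in capitals. The Pdpn stretch lies at chr4:143299565-143299814 on the minus strand. That of Cd34 lies at chr1:194938571-194938820, that of Dpt at chr1:164796413-164796662 and that of Cd81 at chr7:143052500-143052749, all on the plus strand.
Pdpn: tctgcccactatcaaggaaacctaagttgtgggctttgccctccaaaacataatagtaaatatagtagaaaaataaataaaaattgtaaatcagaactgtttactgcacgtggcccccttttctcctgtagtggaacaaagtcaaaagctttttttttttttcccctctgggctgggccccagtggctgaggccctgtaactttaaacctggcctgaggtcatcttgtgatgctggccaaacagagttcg
Cd34: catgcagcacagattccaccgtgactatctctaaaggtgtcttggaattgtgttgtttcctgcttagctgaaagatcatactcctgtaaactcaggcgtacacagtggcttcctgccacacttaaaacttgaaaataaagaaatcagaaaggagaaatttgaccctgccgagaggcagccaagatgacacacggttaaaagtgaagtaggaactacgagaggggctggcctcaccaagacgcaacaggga
Dpt: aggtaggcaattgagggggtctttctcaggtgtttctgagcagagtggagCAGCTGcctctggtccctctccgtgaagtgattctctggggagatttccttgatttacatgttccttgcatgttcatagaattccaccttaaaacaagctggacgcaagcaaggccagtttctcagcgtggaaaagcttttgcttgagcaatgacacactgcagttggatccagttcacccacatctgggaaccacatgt
Cd81: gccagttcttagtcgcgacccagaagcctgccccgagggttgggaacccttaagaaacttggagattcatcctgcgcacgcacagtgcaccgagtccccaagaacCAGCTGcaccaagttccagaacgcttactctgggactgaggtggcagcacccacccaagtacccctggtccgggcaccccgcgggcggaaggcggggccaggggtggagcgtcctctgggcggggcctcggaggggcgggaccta
Promoter windows of 300 bases, from 250 before to 50 after the start, were found in the RefSeq table for 8 of the 10 genes, with 10 windows in all. On either strand, GGAATG, the core bound by TEAD factors, was in 1 of the 10 windows, that of Dpp4, against 14.7% of all 32817 windows. TGANTCA, the AP-1 motif, was in 0 of 10, against 7.8%. CAGCTG, an E-box of basic helix-loop-helix factors, was in 5 of 10, against 16.3%. The windows with CAGCTG were those of Dpt, Cd81 and Pi16 and 2 of the 3 of Gsn. The windows of Pdpn and Cd34 held none of the 3. No motif searched is part of another, and a match is only a match of letters.

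Among the adventitial genes, Pi16 and Clec3b could be tested. Pi16 is a secreted protein of the CAP family and a defining gene of adventitial fibroblasts. At its probe (A_55_P1999102) controls read -0.47, -0.20 and -0.18, and knockouts -0.89, -0.43 and -0.67, with means of -0.28 ± 0.16 and -0.66 ± 0.23 (SD, n = 3 each). Only knockout replicate 2 reached into the control range, just above control replicate 1. The difference was -0.38 (SE 0.18, 95% interval -0.81 to 0.06) and did not pass (limma adjusted p 0.239). Clec3b, or tetranectin, is a secreted lectin that binds plasminogen. At its probe (A_51_P486239) controls read -1.05, -1.55 and -1.18, knockouts -0.99, -1.41 and -1.03, and the ranges overlapped. The difference was 0.11 (SE 0.20, 95% interval -0.37 to 0.60, adjusted p 0.750).

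Dpp4 is a membrane peptidase that trims chemokines and incretins, abundant on enterocytes as well as adventitial fibroblasts. Its probe A_51_P467110 read -1.65, -0.51 and -0.82 in controls and -0.27, -0.63 and -0.74 in knockouts, with the spots of knockout replicates 1 and 2 marked as outliers. With these kept, the groups overlapped and the difference was 0.45 (SE 0.31, 95% interval -0.30 to 1.20, limma adjusted p 0.393). It was 0.12 without control replicate 1, the lowest array. Its other probe (A_52_P417368) was not well above background on any array.

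Of the genes that define trophocytes, Ackr4 and Cd81 had intervals that included 0. Ackr4 is a scavenger receptor that removes the chemokines CCL19, CCL21 and CCL25. Its probe (A_52_P153291) read -1.35, -1.86 and -1.67 in controls and -2.11, -0.76 and -0.90 in knockouts. On control replicate 1 and knockout replicates 1 and 2 its spots were marked as outliers. Knockout replicate 1 was the lowest of all arrays, whereas the other 2 knockouts were the highest. With all spots kept the difference was 0.37 (SE 0.38, 95% interval -0.52 to 1.27, limma adjusted p 0.554), and with single arrays left out it ranged from 0.12 (without knockout replicate 2) to 0.80 (without knockout replicate 1). Ccl19, which encodes one of its ligands, differed by 0.99 (SE 0.38, adjusted p 0.154).

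Cd81 is a tetraspanin used to sort trophocytes, and its 2 probes gave the closest groups of the set. Probe A_51_P223443 read 2.26, 2.29 and 2.44 in controls and 2.40, 2.33 and 2.39 in knockouts. There the spots of control replicate 2 and knockout replicate 1 were marked as outliers and left out of the test. Probe A_51_P223442 read 1.93, 2.0 and 2.06 in controls and 1.83, 1.92 and 2.08 in knockouts, with knockout replicate 1 left out. The arrays overlapped at both. The differences were 0.01 (SE 0.20, 95% interval -0.52 to 0.54) and 0.00 (SE 0.17, 95% interval -0.42 to 0.42), with limma adjusted p of 0.980 and 0.995. Their sign changed with the scaling, within -0.10 to 0.07 over the settings that used all 6 arrays.

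Thy1 and Gsn are broad stromal genes. Thy1 is a GPI-anchored glycoprotein of fibroblasts, T cells and neurons. Its probe (A_55_P2072035) gave 1.46, 1.78 and 1.94 in controls, then 1.48, 1.58 and 1.72 in knockouts. All knockouts lay inside the control range, and the difference was -0.13 (SE 0.18, 95% interval -0.56 to 0.30, limma adjusted p 0.670). Gsn, or gelsolin, is an actin-severing protein. Its brighter probe (A_51_P241465) read 2.86, 2.66 and 2.86 in controls and 3.32, 2.85 and 3.04 in knockouts, with control replicate 1 left out of the test as an outlier. It differed by 0.31 (SE 0.21, 95% interval -0.21 to 0.84, adjusted p 0.394). Its dimmer probe (A_55_P2929567) ranged from -5.44 to -4.07 in controls and from -5.26 to -3.90 in knockouts, and differed by 0.25 (SE 0.46, adjusted p 0.759). The sign of the dimmer probe turned without control replicate 3 (-0.03) and without knockout replicate 3 (-0.11).

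Single arrays weighed on these values. Of the 13 marker probes above background, 7 were lowest on knockout replicate 1, among them Pdpn, Dpt, Pi16, Ackr4 and both probes of Cd34. That array was the dimmest before scaling. The share of all probes lowest on it was not counted, so the 7 cannot be read as particular to the markers. Without control replicate 1 and knockout replicate 1, the arrays with the most outlier spots, 0 marker probes were called, Pdpn differed by -1.21 (limma adjusted p 0.0569) and the dimmer Cd34 probe by -0.74 (adjusted p 0.0811).

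**Figure D3:**
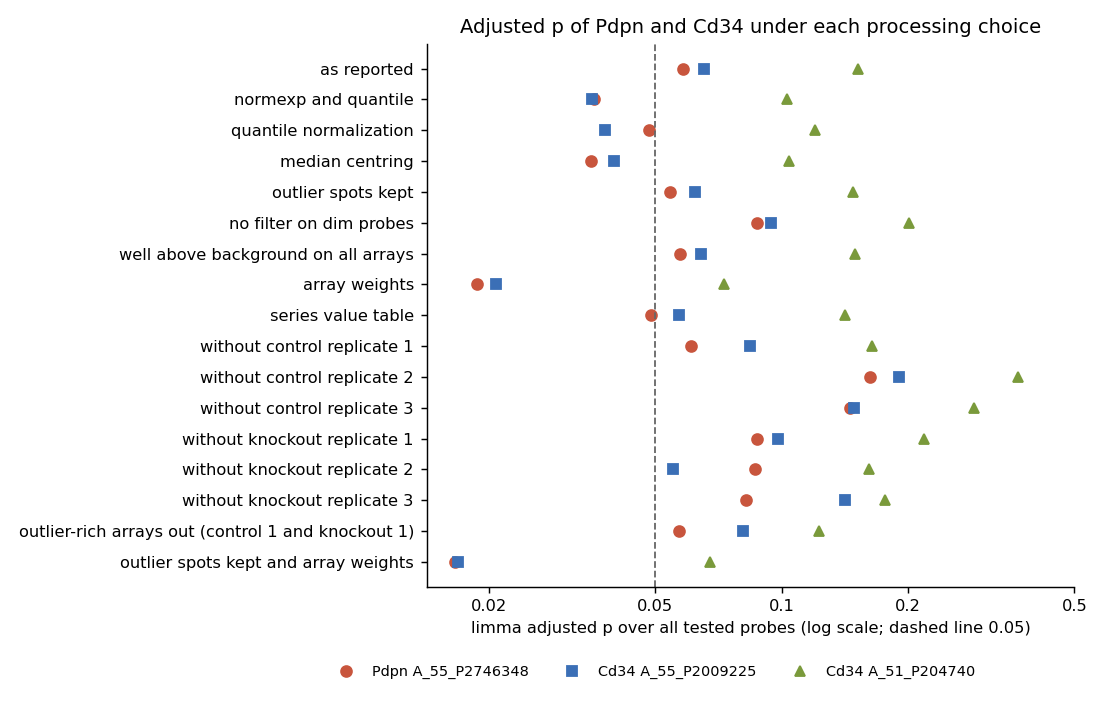
Limma adjusted p over all tested probes (x axis, log scale, dashed line at 0.05) of the Pdpn probe and both Cd34 probes under each processing choice (y axis). Pdpn and the dimmer Cd34 probe cross the threshold with normexp and quantile normalization, quantile normalization, median centring and array weights. Neither does so in a fit with an array left out, where 40 to 2114 of all tested probes were called.

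Other genes of these fibroblasts were counted in lists written with earlier results of these data known, by the brightest tested probe of a gene. Of the other adventitial markers 14 of 15 were tested, with 7 lower, 7 higher, 0 called and a median of 0.03, which ranged from -0.24 to 0.35 as single arrays were left out. With normexp and quantile normalization 2 of them were called and with median centring 1, where 8.01% and 6.07% of all genes were called. Over the 13 well above background on all arrays the median was 0.19, with 6 lower and 7 higher. Its lowest values were those of Col15a1 (-1.99, SE 0.59, limma adjusted p 0.0955) and Efemp1 (-1.72, SE 0.39, adjusted p 0.0609), matrix genes, and its highest that of Dact2 (1.66, SE 0.62, adjusted p 0.148). These genes lay on both sides of 0 in near equal numbers.

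Of the secreted factors of trophocytes 8 of 9 were tested, all but Grem1, which encodes gremlin. Of these 8, Wnt2 and Wnt2b passed the filter through the controls alone, being well above background on 1 knockout array each. The other 6 were well above background on every array. All 6 were lower, with a median of -1.02, and 1, Fgf7, was called in limma, against 1.99% of the 15303 genes with such probes called lower. With Wnt2 and Wnt2b the median was -1.25, and it was -0.82 over the 7 genes that could be tested without knockout replicate 1. With outlier spots kept Grem1 could be tested too. All 9 were then lower, with a median of -1.23 and 2 called, where 799 of all 17865 genes were called. Over all tested genes 3.82% were called, 2.47% lower. Fgf7 encodes a growth factor that acts on epithelial cells. It read 1.27, 1.31 and 1.37 in controls and -1.61, -1.99 and -1.21 in knockouts, apart in every array. It fell by 2.92 on the log2 scale (SE 0.22, limma adjusted p 0.00930), or 7.57-fold. Its call held in each of the 6 fits with an array left out. Wnt2, a Wnt ligand, read -3.14, -3.02 and -2.98 in controls and -6.00, -5.69 and -5.34 in knockouts (adjusted p 0.00944). As 2 of these 3 knockout values were not well above background, no size or error is given for its difference. The R-spondins, which amplify Wnt signals, were lower without being called: Rspo1 by -0.67, Rspo2 by -0.55 and Rspo3 by -0.84 (adjusted p 0.312, 0.129 and 0.161). Whether Fgf7 differs from the 10 markers in its response was not tested.

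Subepithelial PDGFRA-high fibroblasts, the neighbours of trophocytes that secrete BMP ligands, had 10 of 11 tested genes lower, a median of -1.14 and 3 calls. Foxl1 and Pdgfra were well above background on only 2 knockout arrays, and without them 8 of 9 were lower, with the same median and calls. Leaving out knockout replicate 1 gave a median of -0.74. Leaving out control replicate 2 gave -1.63 and knockout replicate 3 gave -1.72, each over 10 genes that could be tested. No gene of the list was called without control replicate 2, control replicate 3 or knockout replicate 3. Few genes of any kind were called in those fits, namely 33 of 15416, 46 of 15498 and 24 of 15081 in that order. Agt, the angiotensin precursor, read 0.71, 0.44 and 0.06 in controls and -1.47, -1.86 and -1.30 in knockouts and fell by 1.95 (SE 0.23, limma adjusted p 0.0240). Bmp4 fell by 2.0 (adjusted p 0.0395) and Bmp7 by 2.43 (adjusted p 0.0277), and a dimmer probe of Bmp5 by 2.65 (adjusted p 0.0435). The brighter Bmp5 probe, by which the list was counted, differed by -2.07 (SE 0.57, adjusted p 0.0929) and was not called. Agt, Bmp4, Bmp7 and the dimmer Bmp5 probe each lost the call without control replicate 2, control replicate 3 or knockout replicate 3, with adjusted p up to 0.111. Agt lost it without knockout replicate 1 too, and Bmp4 without control replicate 1. The dimmer Bmp5 probe lost it also without control replicate 1 or knockout replicate 2. The 12 pan-fibroblast matrix genes were all lower, with 0 called and a median of -0.72. Without knockout replicate 1 the median was -0.45, over 11 genes that could be tested. With quantile normalization, normexp and quantile normalization, or median centring 1 of them was called, where 969, 1317 and 998 of all 16451 genes were. The mean signal of the pan-fibroblast list was 2.14 to 2.42 in controls and 1.50 to 1.95 in knockouts. That of the tested markers of the 10 was 1.73 to 1.94 and 1.57 to 1.73. That of the other adventitial list was 1.27 to 1.63 in controls and 1.65 to 1.80 in knockouts, higher in the knockouts without overlap. A mean signal is the log2 of the genes' scaled signals averaged on the linear scale, with outlier spots kept. It is weighted to the brightest probes, such as that of Gsn among the markers, and its level is not comparable between lists.

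**Figure D4:**
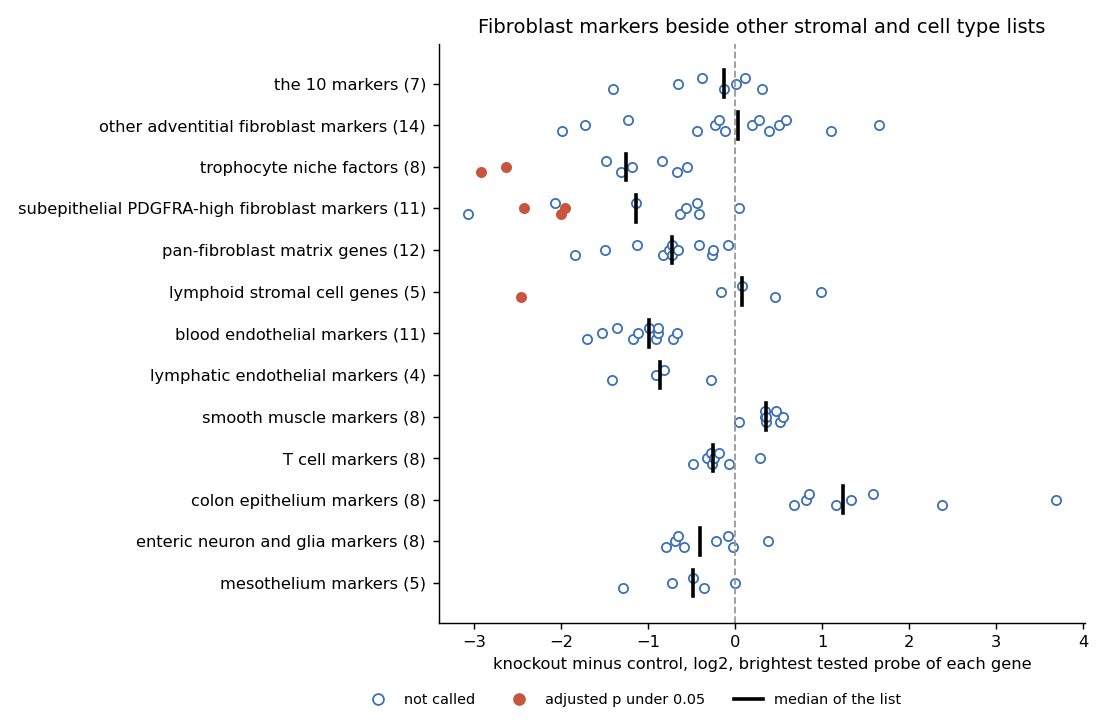
Knockout minus control difference on the log2 scale (x axis) of the brightest tested probe of each gene, for the 7 testable genes of the 10 markers and for 12 other lists (y axis, number of tested genes in brackets), filled where the adjusted p was under 0.05, with the median of each list as a bar. The marker set and the other adventitial list lie on both sides of 0, and all tested trophocyte factors (Wnt2 and Wnt2b near background in the knockout), pan-fibroblast matrix genes and blood endothelial genes lie below 0.

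Markers of the other cells that carry these genes were set beside them, and their part in the values of the 10 genes was not tested. Every gene of the 12 lists had a probe well above background on at least 1 array. Whether the arrays were run on whole colon or on separated cells is not settled by the labels, and in a mixture of cell types fewer cells of a type and less RNA per cell cannot be told apart. All 11 tested blood endothelial genes were lower beside Cd34, with a median of -0.99 and 0 called. Without knockout replicate 2, 2 were called, where 545 of all 15202 genes were. With quantile normalization, normexp and quantile normalization, or median centring 1 was called, where 969, 1317 and 998 of all 16451 genes were. The mean signal of the blood endothelial genes was 0.94 to 1.11 in controls and -0.67 to 0.55 in knockouts. Pecam1 read 0.37, 0.68 and 0.22 in controls and -2.11, -0.56 and -1.18 in knockouts, lowest on the same array as Cd34. Beside Pdpn, the 4 tested lymphatic endothelial genes were lower (median -0.86, mean signal -0.64 to -0.38 in controls and -1.53 to -1.03 in knockouts), with 0 called. That median was -0.44 without control replicate 1 (3 lower and 1 higher) and -0.40 without control replicate 2 (2 lower and 1 higher), and 1 of the 4, Flt4, was well above background on only 2 knockout arrays. With median centring or with normexp and quantile normalization 1 of the 4 was called, where 6.07% and 8.01% of all genes were called. With outlier spots kept 1 of 5 was called, against 799 of all 17865 genes. Lyve1 was above background on every array, at 1.14, 1.18 and 1.03 in controls and at 0.09, 0.02 and 0.54 in knockouts, with outlier spots on control replicate 1 and knockout replicate 1. Prox1, also above background on every array, read -3.22, -3.90 and -3.82 in controls and -4.24, -3.84 and -3.69 in knockouts. Its groups overlapped, and it differed by -0.28 (SE 0.25, limma adjusted p 0.511). Of 5 tested lymphoid stromal genes 2 were lower and 3 higher, with a mean signal of 0.13 to 0.51 and 0.37 to 0.53. Their median of 0.08 was -0.15 with normexp and quantile normalization and ranged from -0.06 to 0.33 with single arrays left out. One of them, Tnfsf11, the cytokine RANKL, fell by 2.46 (SE 0.29, limma adjusted p 0.0229, and 0.0555 to 0.0673 without control replicate 2, control replicate 3 or knockout replicate 3). Over all tested genes 2.47% were called lower. Mesothelial genes, 4 of 5 lower, had a median of -0.48 and a mean signal of -1.79 to -1.47 in controls and -2.94 to -1.51 in knockouts. Bnc1, a lower gene, passed the filter through the controls alone, being well above background on 1 knockout array. Without it 3 of 4 were lower, with a median of -0.42. The median of all 5 was -0.20 without knockout replicate 1 (3 lower and 2 higher) and -0.83 without knockout replicate 3.

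Beside Gsn, Dpp4 and Cd81, the 8 tested smooth muscle genes were all higher with a median of 0.36, and the 8 tested epithelial genes were all higher with a median of 1.24, with 0 called in either list. Their mean signals were 2.32 to 2.64 against 2.77 to 3.01 for smooth muscle and 0.96 to 2.67 against 2.94 to 3.39 for epithelium, controls first, and in both the groups did not overlap. Without control replicate 1 or knockout replicate 3, 7 of the 8 smooth muscle genes were higher. Control replicate 2 was the lowest array for all 8 epithelial genes, and without it 6 could be tested, with a median of 0.66. Slc26a3, a chloride exchanger of surface colonocytes, read 0.48, -3.09 and -1.26 in controls and 2.74, 2.3 and 2.49 in knockouts. Its spot on knockout replicate 1 was marked as an outlier. Without control replicate 1, 2 epithelial genes were called, where 1030 of all 16777 tested genes were called. Without knockout replicate 2 or 3 only 3 epithelial genes could be tested. Beside Thy1, 7 of 8 tested T cell genes were lower (median -0.26, mean signal -0.86 to 0.08 in controls and -0.92 to -0.11 in knockouts) and 7 of 8 enteric neuron and glia genes (median -0.41, mean signal 1.18 to 1.35 and 1.13 to 1.25), with 0 called in either. The T cell tally rested on single arrays: without knockout replicate 3 it was 4 lower and 4 higher (median 0.00), and without control replicate 2 it was 5 and 3 (median -0.08). Leaving out control replicate 1 gave -0.48, and knockout replicate 2 gave -0.44.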

How the data were processed

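Each sample's file held the processed signal of a red-channel Agilent scan as an intensity on a linear scale, detrended and background-subtracted with Feature Extraction 11.5.1.1 and not scaled between arrays, per the file headers (the submitters' processing notes give Feature Extraction 10.7). The labels name Cy3 and a green column, but the files hold the red channel alone. The deposited series value table, also intensity, correlated with the processed signal at 0.99998 or more on the log2 scale and served as an alternative.

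Signals were converted to log2 and centred on the array's 75th percentile of non-control spots. Outlier spots were left out. A probe was tested if well above background on all arrays of 1 group with at least 2 usable values per group (35351 of 56605). The genotype difference came from limma 3.58.1 under R 4.3.3 (lmFit, eBayes, two-sided p), and Benjamini-Hochberg adjustment was made over all tested probes at 5%. The procedure was tested on simulated data. No replicate numbers in the labels pair the animals. Exact permutation of 3 against 3 cannot go below p = 0.1.

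Probes were named through RefSeq accessions of GRCm38.p6 (33767 of 56605). The files' own coordinates are on mm9 and were not used. The text names every probe of the 10 genes, Islr, called members of the 12 lists, and further list members chosen after their values were seen. The 10 genes and the lists were chosen with earlier results of these data known. The rule for genes with the nearest profile applied to called markers, of which there were 0. Alternatives were normexp (offset 50) with quantile normalization, quantile normalization, median centring, outlier spots kept, no or a stricter filter on dim probes, array weights, the value table, the mean over a gene's probes, and leaving out each array. Leaving out control replicate 1 with knockout replicate 1, array weights with outlier spots kept, and list counts over genes well above background on all 6 arrays, were added after seeing the data.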

Additional observations from a re-analysis of the deposited data

How the results depend on the processing

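The count of marker probes called was 0 with outlier spots kept, with either filter on dim probes, without any 1 array, and without control replicate 1 and knockout replicate 1 together. It was 2 (Pdpn and the dimmer Cd34 probe) with normexp and quantile normalization, quantile normalization, median centring, array weights, and array weights with outlier spots kept, and 1 (Pdpn) in the value table. The cause was not tested. Over all probes 1403 were called, 39.1% of them higher in the knockout. The count was 2768 with normexp and quantile normalization, 2185 with quantile normalization, 2249 with median centring, 484 without the filter, 7320 with array weights (49.7% higher), 9528 with array weights and outlier spots kept (50.6% higher) and 2274 in the value table, and 40 to 2114 with 1 array left out. The share higher was 10% without knockout replicate 3, 24.7% and 26.5% without knockout replicates 1 and 2, and 55.1% without control replicate 1. The median of the marker genes, -0.13 over 7, ranged from -0.31 to -0.03 with 1 array left out. It was -0.31 without knockout replicate 2 and -0.29 without knockout replicate 3, each over 6 genes, as Cd81 could not be tested there. Islr ranged from -2.58 to -2.34 in those fits and was -2.39 (adjusted p 0.0580) without knockout replicate 3. Without control replicate 2 or 3 it had too few usable values. Cd81 turned sign: A_51_P223442 was -0.09 with normexp and quantile normalization, -0.10 with quantile normalization, -0.05 with median centring and with outlier spots kept, -0.02 in the value table, -0.01 with weights and outlier spots kept and -0.03 without control replicate 1, alone or with knockout replicate 1, and -0.03 to 0.03 with 1 array left out. A_51_P223443 was -0.08, -0.03 and -0.05 under the first 3 of these and -0.04 with array weights. With 1 array left out, Clec3b ranged from -0.03 to 0.25 and the dimmer Gsn probe from -0.11 to 0.66. No paired analysis was possible because the labels give no replicate numbers. Dpt, Ackr4 and Dpp4 rest on spots marked as outliers, and the dimmer Gsn probe on low signal (SE 0.46), which limits their precision. The dimmer Cd34 probe also had low signal, but its SE of 0.23 was no larger than the 0.25 of the brighter Cd34 probe.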
